A study of Mus musculus with 2 samples.

Results

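Foxp3-positive regulatory T cells were described among CD45+ cells of the spinal cord of mice with EAE (experimental autoimmune encephalomyelitis), in which T cells raised against myelin attack the brain and cord. CD45 is a surface protein of leukocytes and microglia. The cells were chosen by their own counts: at most 20% of counts from mitochondrial genes, at least 2 counts summed over the CD3 genes Cd3d, Cd3e and Cd3g, at least 1 count of Foxp3, and 0 counts of Cd8a, Cd8b1 and Trdc. This rule found 585 of 20504 cells. Of these, 159 and 229 came from untreated replicates 1 and 2, and 71 and 126 from inhibitor-treated replicates 1 and 2. The 4 replicates are labelled as C57BL/6 mice, all with EAE and taken 15 days after induction, so every group carried the disease and no healthy cord was compared. The title of the series also names STAP-1 mice, and none of the cells analysed here carries such a label. The labels do not name the inhibitor, its target, its dose or its schedule, or the age and sex of the mice. Cells were stained with antibody hashtags, pooled and loaded together on the BD Rhapsody system, which captures the polyA RNA of single cells on barcoded beads.

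Regulatory T cells are CD4 T cells that hold other immune cells in check. Their lineage factor is the transcription factor Foxp3, which acts beside the Ikaros family factors Helios (Ikzf2) and Eos (Ikzf4). They carry the high-affinity chain of the interleukin-2 receptor (Il2ra), the inhibitory receptor Ctla4 and costimulatory receptors such as OX40 (Tnfrsf4), and can release interleukin-10. In EAE they are known to collect in the inflamed cord and to favour recovery. In the GRCm38 assembly with GENCODE vM21, the gene Foxp3 lies on chromosome X from 7573644 to 7595245 on the plus strand. Ikzf2 lies on chromosome 1 from 69531214 to 69687245 on the minus strand, and Ctla4 on chromosome 1 from 60887000 to 60915832 on the plus strand. Il2ra lies on chromosome 2 from 11642807 to 11693193 on the plus strand.

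Foxp3 counts per chosen cell ran from 1 to 79 with a median of 5, and cells with a single count showed the other lineage markers least often. The markers were read after every cell had been thinned to 3000 counts, which left out 19 of the 585 cells as too shallow. Ikzf2 was detected in 22.1% of the cells with a single Foxp3 count (141 cells before thinning), in 51.2% of those with 2 (45 cells), in 51.0% of those with 3 to 9 (216 cells) and in 54.7% of those with at least 10 (183 cells). Ctla4 was detected in 22.8%, 41.5%, 55.8% and 62.4% of the same classes. Tnfrsf4 was detected in 19.1%, 41.5%, 58.7% and 61.9%, and Il2ra in 21.3%, 24.4%, 38.9% and 49.7%. In 3074 conventional CD4 T cells, described further on, the shares were 6.00% for Ikzf2, 14.0% for Ctla4, 11.2% for Il2ra and 15.8% for Tnfrsf4, each under the share of cells with a single Foxp3 count. Before thinning, 523 of the 585 cells held a count of at least 1 of the 4 markers and 62 held none. Cd4 itself was detected in 325. Foxp3 chose the cells, so these shares are a description.

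**Figure D1:**
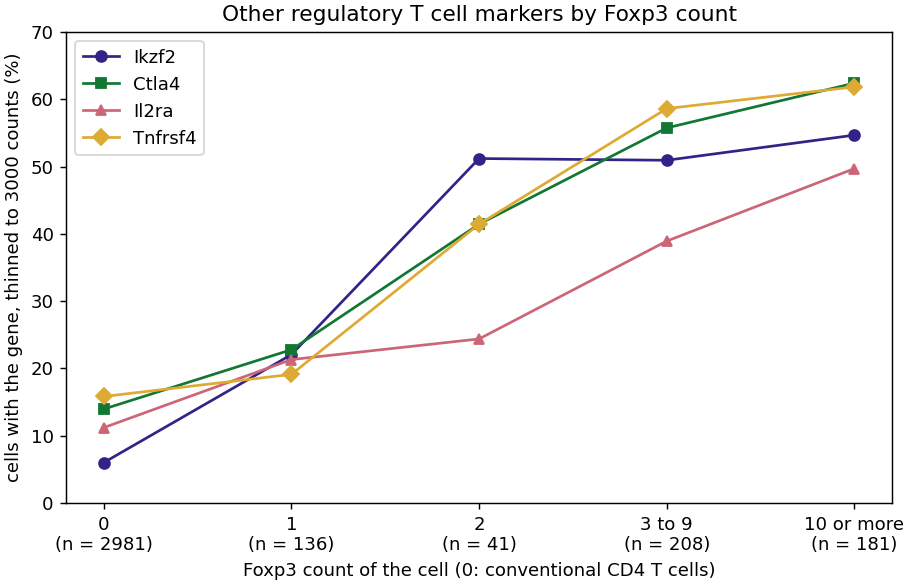
Share of cells with a count of Ikzf2, Ctla4, Il2ra or Tnfrsf4 after thinning to 3000 counts (vertical axis, percent) by the Foxp3 count of the cell (horizontal axis), where 0 stands for conventional CD4 T cells. Cells with 1 Foxp3 count lie between 19.1% and 22.8% for all 4 markers, and cells with at least 10 between 49.7% and 62.4%.

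Just outside the rule, 55 cells with Foxp3 had a CD3 sum of 1, 137 had a CD3 sum of 0, 209 held Cd8a, Cd8b1 or Trdc, and 3 had over 20% mitochondrial counts. Just inside it, 34 cells had a CD3 sum of 2. Ikzf2 was detected in 18.2% of the 34 after thinning, in 15.4% of the cells with a CD3 sum of 1 and in 9.84% of those with a CD3 sum of 0. The cells left out for Cd8a, Cd8b1 or Trdc had a median of 19230 counts and Ikzf2 in 44.4%.

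Foxp3 was also found at a low rate in cells of other types. It was detected in 1.27% of 2668 neutrophils (95% Wilson interval 0.913 to 1.78, median depth 7886 counts), in 0.707% of 566 B cells (0.275 to 1.80, median depth 5338 counts) and in 4.37% of 823 CD8 T cells. Of the 6722 CD3-positive cells without Cd8a, Cd8b1 and Trdc it was detected in 8.70% (8.05 to 9.40, median depth 8488 counts). A Foxp3 count of at least 2 was found in 0.150% of the neutrophils, 2.67% of the CD8 T cells and 6.61% of these CD3-positive cells. In 431 gamma-delta T cells, chosen by Trdc, Foxp3 was detected in 3.71%, and a count of at least 2 in 1.62%. Wilson intervals here cover counting error only.

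The chosen cells had a median of 11220 counts and 2081 detected genes, with medians between 9579 and 12780 counts in the 4 mice and totals per mouse from 1196582 to 3741288 counts. No cell number was shared between columns of the matrix. Transcripts of other cell types were present: 204 of the 585 cells held at least 2 counts summed over 7 genes of B cells, myeloid cells, plasmacytoid dendritic cells and NK cells, and are called cells of mixed type here. They were 39.0% and 37.6% of the regulatory T cells of untreated and 35.2% and 24.6% of those of inhibitor-treated mice, and 27.8% of the conventional CD4 T cells. Inhibitor replicate 1, which also gave the fewest cells, stood apart. Its 12 neutrophil markers summed to 53000 CPM (counts scaled to a common total per mouse and cell set), against 10150 and 9522 in untreated replicates 1 and 2 and 743 in inhibitor replicate 2. Over all 4 mice 86.2% of these neutrophil counts lay in 10 cells.

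Regulatory T cells made up a smaller share of the cells in both inhibitor-treated mice than in both untreated mice, in a design too small to pass a test. Of the cells with at least 2 CD3 counts, they were 6.46% (5.56 to 7.51, 95% Wilson interval) and 7.62% (6.73 to 8.62) in untreated replicates 1 and 2. They were 4.83% (3.85 to 6.05) and 5.68% (4.79 to 6.73) in inhibitor replicates 1 and 2. The means were 7.04% ± 0.82 (SD, n = 2) and 5.26% ± 0.60 (SD, n = 2), a log2 ratio of inhibitor over untreated of -0.42. The groups did not overlap, and the two-sided exact permutation test gave p = 0.333, the smallest value that 2 against 2 mice allow.

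Of all cells, regulatory T cells made up 3.37% and 4.62% without and 1.26% and 2.44% with the inhibitor (log2 ratio -1.11, exact permutation p = 0.333). In this denominator the CD3-positive cells themselves took 52.1% and 60.6% without and 26.0% and 42.9% with it. As a share of Foxp3-positive plus Foxp3-negative Cd4-positive cells, they were 16.9% and 16.9% against 15.4% and 14.0%, a difference of means of -2.25 percentage points. The Wilson intervals of all 4 mice overlapped in this share, from 14.7 to 19.4 and 15.0 to 19.0 without and from 12.4 to 18.9 and 11.9 to 16.4 with the inhibitor. After thinning to 3000 counts the same shares were 16.4% and 16.9% against 11.8% and 11.6%. Their intervals ran from 13.8 to 19.4 and 14.7 to 19.3 against 8.72 to 15.8 and 9.4 to 14.1. Those of untreated replicate 2 and inhibitor replicate 2 did not overlap. Such intervals cover counting error within a mouse and not the spread between mice. With cells of mixed type left out, the share of the cells with CD3 counts was 6.34% and 7.51% against 5.46% and 6.34%, so that untreated replicate 1 and inhibitor replicate 2 were nearly level.

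**Figure D2:**
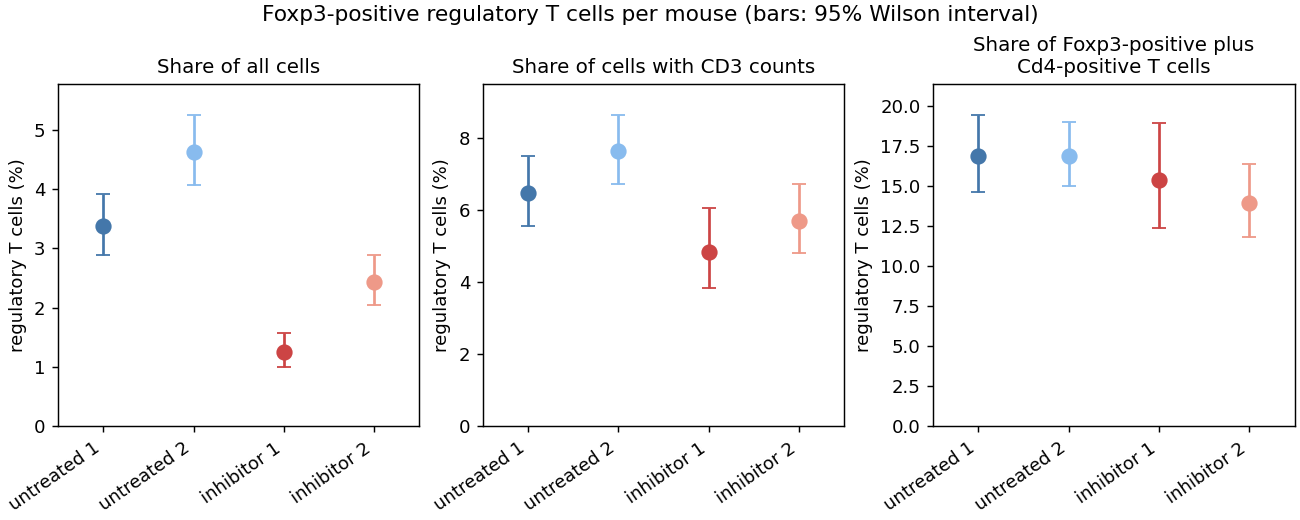
Share of Foxp3-positive regulatory T cells per mouse (points, vertical axis in percent from 0 with a scale of its own in each panel, bars for 95% Wilson intervals) among all cells, among cells with CD3 counts and among Foxp3-positive plus Cd4-positive T cells. Both inhibitor-treated mice lie under both untreated mice, with 1.26% and 2.44% against 3.37% and 4.62% of all cells and 4.83% and 5.68% against 6.46% and 7.62% of the cells with CD3 counts.

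To see which genes set these cells apart in the inflamed cord, they were compared with conventional CD4 T cells of the same mice. These were 781, 1125, 391 and 777 cells, in the order untreated replicates 1 and 2 and inhibitor replicates 1 and 2, an order that all values below follow. Pairs of levels are written as those of regulatory against those of conventional T cells. The conventional cells met the same CD3 and mitochondrial limits and held at least 1 count of Cd4 and 0 of Foxp3, Cd8a, Cd8b1 and Trdc. Counts were summed per mouse and tested with edgeR's quasi-likelihood test with the mouse as a block, and genes with a Benjamini-Hochberg adjusted p under 0.05 over all genes tested were called. Of 12563 genes, 156 were called higher in regulatory T cells (1.24%) and 176 lower (1.4%). The numbers depended on the mice and on the conventional cells used. Without untreated replicate 1, untreated replicate 2 or inhibitor replicate 2 there were 75, 91 and 72 higher and 66, 88 and 65 lower calls. Regulatory T cells were the deeper set (medians 11220 and 9449 counts). Conventional cells were also matched to them on total count, 1 to 1, which left 159, 229, 71 and 126 conventional cells. There were then 51 higher and 48 lower calls of 11276 genes, and 96 of these 99 were among the 332. This matching changed depth and cell number together. Their parts cannot be told apart, here or where depth-matched cells are named below. Where values of the 2 cell sets are said below not to overlap, this is a description of genes mostly picked for their calls. The share of all genes with such a separation was not counted, so it adds no support to the calls.

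The genes of regulatory T cell identity were mostly higher. Of the 17 listed, 16 were tested, since Foxp3 belongs to the rule. Of these, 14 were positive and 11 were called higher, against 1.24% of all genes, with a median log2 fold of 2.14 against -0.01 over all genes tested. Ikzf2, the factor Helios, was at 317, 382, 203 and 295 against 44.1, 41.1, 31.04 and 23.8 CPM (log2 fold 3.08 ± 0.16 SE, edgeR adjusted p = 3.50e-05). Il2ra, of the interleukin-2 receptor, was at 296, 425, 234 and 405 against 62.7, 80.1, 46.2 and 96.3 CPM (log2 fold 2.24 ± 0.11 SE, edgeR adjusted p = 3.50e-05). In both genes every regulatory value lay above every conventional one. Ctla4, the inhibitory receptor that binds CD80 and CD86, was at 320.1, 419.6, 291 and 292 against 62.3, 84.3, 57.1 and 91.7 CPM (log2 fold 2.15 ± 0.14 SE, edgeR adjusted p = 0.000115). Tnfrsf4, OX40, was at 525, 509.7, 602 and 764 against 146, 133, 126 and 129.5 CPM (log2 fold 2.12 ± 0.13 SE, edgeR adjusted p = 7.67e-05). All 4 supporting markers of the cell type were thus higher in every mouse, and they were called under the other 12 alternatives beside the one that chose regulatory T cells by these 4 genes.

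Other identity genes had the same pattern. Ikzf4, the factor Eos, was at 71.95, 58, 96.9 and 83.04 against 14.5, 13.3, 13.98 and 8.83 CPM. Lrrc32, GARP, which holds latent TGF-beta on the surface, was at 54.7, 58.3, 46.8 and 65.4 against 3.87, 4.78, 7.82 and 2.34 CPM, a 12.8-fold difference. Izumo1r, folate receptor 4, was at 258, 302, 205 and 384 against 43.7, 49.03, 33.2 and 23.7 CPM. None of the 3 overlapped between the cell sets. Itgae, the CD103 integrin chain that binds E-cadherin, was at 66.1, 90.6, 42.6 and 65.4 against 7.43, 13.9, 0.711 and 5.28 CPM, and Tnfrsf18, GITR, was 2.89-fold higher. Tigit and Gpr83 were called too, and both calls ended without untreated replicate 2, without inhibitor replicate 2 and with depth-matched cells. The list was not uniform. Nrp1, a surface protein of thymus-derived regulatory T cells in mice, was at 135, 87.9, 61.01 and 67.7 against 109, 124, 95.5 and 106 CPM (log2 fold -0.38 ± 0.17 SE, edgeR adjusted p = 0.342). Il2rb had a log2 fold of -0.01 ± 0.14 SE, and Entpd1 and Nt5e, the surface enzymes CD39 and CD73 that make adenosine, had 0.36 ± 0.16 SE and 0.61 ± 0.23 SE. These 4 and Capg were the 5 genes that did not pass.

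Among mediators of suppression 12 of 14 were positive and 6 were called higher, against 1.24% of all genes (median log2 fold 0.56). Gzmb, the protease granzyme B, was at 208, 204, 70.2 and 266 against 19.1, 24.2, 23.7 and 38.4 CPM (log2 fold 2.76 ± 0.26 SE, edgeR adjusted p = 0.000732). Il10 was at 15.4, 132, 45.96 and 51.9 against 5.803, 11.6, 6.16 and 3.66 CPM (log2 fold 2.94 ± 0.37 SE, edgeR adjusted p = 0.00357). Among regulatory T cells Il10 was highest in untreated replicate 2 and lowest in untreated replicate 1, and every regulatory value of both genes lay above every conventional one. Areg, amphiregulin, a growth factor tied to tissue repair, was at 50.3, 63.9, 34.3 and 66.3 against 11.4, 19.7, 18.01 and 22.7 CPM. Itgb8, an integrin chain that activates TGF-beta, was 7.33-fold higher, Ebi3, a subunit of heterodimeric interleukins, 2.7-fold and Fgl2 1.53-fold. With depth-matched cells Gzmb and Il10 were still called and Areg, Itgb8, Ebi3 and Fgl2 were not. At equal depth, in thinned cells, Gzmb was detected in 17.7% of regulatory and 2.95% of conventional cells, and Il10 in 9.36% and 0.772%.

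Receptors of the tumour necrosis factor family had 6 called higher and 0 called lower of 16 tested, against 1.24% and 1.4% of all genes. Of the 16, 8 were positive, with a median log2 fold of 0.10. Beside Tnfrsf4 and Tnfrsf18, Tnfrsf9 (4-1BB) was at 236, 188, 169.6 and 298 against 63.6, 34.4, 37.2 and 52.6 CPM, and Cd27 was at 120.4, 159.6, 123 and 112 against 22.4, 21.5, 27.3 and 12.4 CPM. Neither overlapped, and both are costimulatory receptors. Tnfrsf1b (TNF receptor 2) was 2.13-fold higher and Tnfrsf13b, known as a receptor of B cells, 2.602-fold, a call that ended without untreated replicate 1.

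Genes tied to effector regulatory T cells moved in both directions, with 6 called higher and 2 lower of 24 tested, against 1.24% and 1.4% of all genes. Klrg1, a receptor of terminally differentiated effector lymphocytes, was at 85.5, 121, 53.5 and 123 against 6.21, 11.6, 9.95 and 14.1 CPM (log2 fold 3.19 ± 0.23 SE, edgeR adjusted p = 0.000161). Il1rl1, the interleukin-33 receptor ST2, was at 46.99, 31.8, 33.4 and 35.7 against 19.9, 6.99, 9.48 and 7.51 CPM, a call that ended with depth-matched cells. Tnfrsf9 and Tnfrsf1b, given above, stand in this list too. Icos, a costimulatory receptor, and Maf, a transcription factor, were 1.45-fold and 1.601-fold higher. The call of Icos ended without untreated replicate 1, without untreated replicate 2 and without the mouse as a block, and that of Maf without untreated replicate 1, without the mouse as a block and with depth-matched cells. Cd44, an adhesion receptor of activated T cells, and S100a4, a calcium-binding protein, were lower with log2 folds of -0.64 and -0.50. The call of Cd44 ended without untreated replicate 1 and without inhibitor replicate 2, and that of S100a4 under 5 of 13 alternatives.

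Among effector cytokines and ligands more genes were called lower than higher. Of 16 tested, 14 were negative, 8 were called lower, against 1.4% of all genes, and 1 higher, with a median log2 fold of -0.87. Cd40lg, the CD40 ligand by which helper T cells activate B cells and myeloid cells, was at 17.3, 27.5, 26.7 and 26.6 against 100.4, 107, 118 and 107 CPM (log2 fold -2.18 ± 0.16 SE, edgeR adjusted p = 0.000169). Ifng, interferon-gamma, was at 65.3, 136, 171 and 131 against 384, 282, 268 and 361 CPM (log2 fold -1.45 ± 0.25 SE, edgeR adjusted p = 0.0168). Tnf was at 175, 142, 56.8 and 122 against 289.7, 229, 198 and 209 CPM. In all 3 genes every regulatory value lay under every conventional one. The call of Ifng ended with at least 2 Foxp3 counts, without inhibitor replicate 2, with depth-matched cells and with no condition on Cd4, and that of Tnf without untreated replicate 1, without inhibitor replicate 2 and without the mouse as a block.

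Csf2, GM-CSF, a cytokine that encephalitogenic T cells use in EAE, was at 1.101, 2.14, 0 and 2.71 against 14.3, 7.55, 8.06 and 8.63 CPM, with an edgeR adjusted p of 0.04997 that passed narrowly and did not pass under 10 of 13 alternatives. Tnfsf11, Tnfsf8, Lta and Xcl1 were the other genes called lower. The gene called higher was Ccl4, a chemokine that myeloid cells also make, at 556, 335, 236 and 177 against 309, 229.6, 99.8 and 124 CPM. This call ended with at least 2 Foxp3 counts, without untreated replicate 1, without the mouse as a block, with depth-matched cells and with no condition on Cd4. Il17a, the Th17 cytokine, was at 7.34, 55.3, 91.9 and 28.4 against 28.6, 93.3, 27.01 and 102 CPM, with overlapping sets, and was detected in 4.24% of thinned regulatory and 6.11% of thinned conventional cells.

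Receptors and factors of helper T cells had 14 of 22 negative, 5 called lower and 2 higher, against 1.4% and 1.24% of all genes. Il18rap and Il18r1 are the chains of the interleukin-18 receptor. Il18rap was at 70.5, 68.4, 69.4 and 74.9 against 134, 119.5, 164 and 188 CPM, and Il18r1 was at 113, 144, 122 and 104 against 231, 227, 212 and 231 CPM. Neither overlapped between the cell sets. Il23r, the interleukin-23 receptor chain of pathogenic Th17 cells, was at 0.367, 0.535, 0 and 0 against 5.91, 4.99, 2.84 and 6.29 CPM, and its call ended without cells of mixed type, without untreated replicate 1, without untreated replicate 2, without inhibitor replicate 2 and with depth-matched cells. Stat4 and Runx3 were the other genes called lower, and Maf and Il6st those called higher. Stat4 was not called under 9 and Il6st under 8 of 13 alternatives. Tbx21, the Th1 factor T-bet, did not pass at 10.3, 24.1, 6.69 and 14.9 against 30.5, 28.9, 26.5 and 38.4 CPM (edgeR adjusted p = 0.0745). Gata3, the Th2 factor, was detected in 18.7% of regulatory and 13.8% of conventional cells after thinning.

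**Figure D3:**
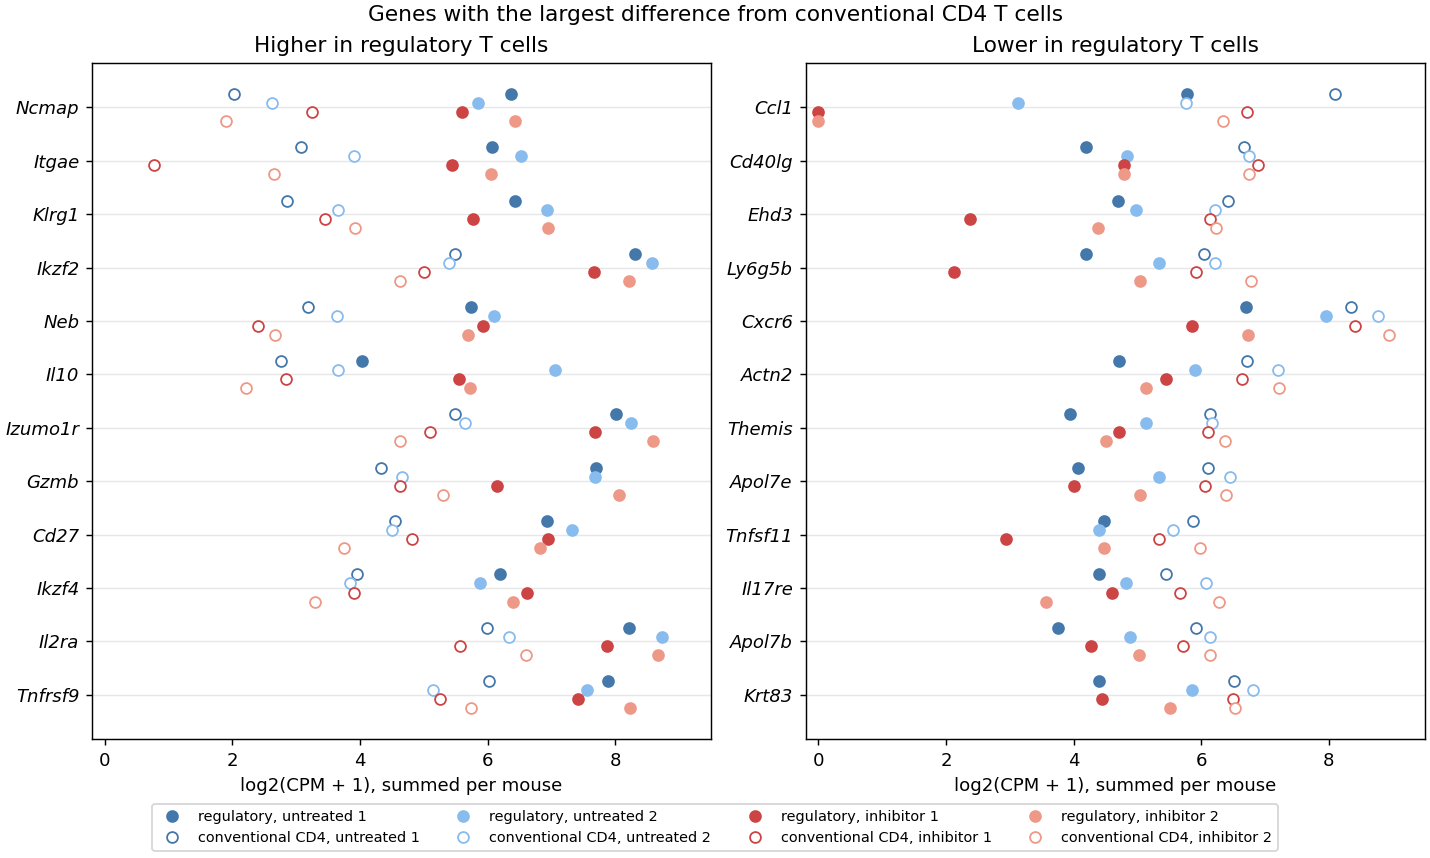
Level per mouse of the 12 genes called higher and the 12 called lower with the largest fold and an average of at least 32 CPM, as log2(CPM + 1) on the horizontal axis, with filled points for regulatory and open points for conventional CD4 T cells, blue for untreated and red for inhibitor-treated mice. Ncmap lies at 81.9, 56.9, 47.6 and 85.3 against 3.05, 5.13, 8.53 and 2.74 CPM, and Cd40lg at 17.3, 27.5, 26.7 and 26.6 against 100.4, 107, 118 and 107 CPM.

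Of the genes with the largest folds, several stood outside the lists. Ncmap, known as a membrane protein of myelinating Schwann cells, was at 81.9, 56.9, 47.6 and 85.3 against 3.05, 5.13, 8.53 and 2.74 CPM (log2 fold 3.89 ± 0.39 SE, edgeR adjusted p = 0.00112). Neb, which encodes the muscle protein nebulin, was at 52.5, 67.6, 60.2 and 50.6 against 8.15, 11.4, 4.27 and 5.38 CPM (log2 fold 2.98 ± 0.26 SE, edgeR adjusted p = 0.000497). Both were called under all 13 alternatives, with log2 folds between 3.56 and 4.73 for Ncmap and between 2.66 and 3.43 for Neb. On the lower side, Cxcr6, a chemokine receptor of tissue T cells, was at 103, 247, 56.8 and 106 against 325, 435, 339 and 488 CPM (log2 fold -1.80 ± 0.24 SE, edgeR adjusted p = 0.00477). Themis, a signalling protein of thymocyte selection, was at 14.3, 33.95, 25.1 and 21.7 against 69.6, 70.8, 67.8 and 81.7 CPM, and Actn2, an alpha-actinin, was at 25.3, 58.5, 42.6 and 34.3 against 104, 147, 98.8 and 149 CPM. None of the 3 overlapped between the cell sets. Apol7e and Apol7b, of the apolipoprotein L family, were 3.13-fold and 2.92-fold lower. They are relatives in sequence, and counting could have split reads between them. Ehd3, Ly6g5b, Tnfsf11, Il17re and Krt83 were also lower, with log2 folds between -1.96 and -1.52. The call of Ehd3 ended without untreated replicate 1 and with depth-matched cells, that of Krt83 with depth-matched cells, and those of Ly6g5b and Il17re under 4 and 6 of 13 alternatives. Ccl1, a chemokine that binds Ccr8, was at 53.6, 7.75, 0 and 0 against 272, 52.98, 105 and 79.8 CPM, where 0 stands for listed at 0. The call of Ccl1 ended without the mouse as a block and with depth-matched cells.

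Adhesion genes were called in both directions, 4 higher and 5 lower of 16. Itgb1, the beta-1 chain of VLA-4, was at 326, 298, 239 and 283 against 517, 598, 608 and 652 CPM. Itgal, a chain of LFA-1, was at 179.9, 197, 131 and 239.6 against 302, 325, 292 and 383 CPM. Both belong to integrins by which T cells enter the inflamed cord, and neither overlapped. Of the genes of naive and quiescent T cells, Tcf7, a transcription factor of less differentiated T cells, was called lower at 95.4, 99.4, 103 and 69.95 against 252, 210.3, 234 and 183 CPM. Satb1 and Il7r were called lower with it, 3 of 14 genes in all. Beside these counts, 1.24% of all genes were called higher and 1.4% lower.

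Of 18 genes of proximal T cell receptor signalling 17 were negative and 3, among them Lat and Lck, were called lower (median log2 fold -0.42). Lat, an adaptor of the receptor, had a log2 fold of -0.78 ± 0.09 SE. With no condition on Cd4 in the comparison cells the list's median was -0.16, with 7 of 18 positive, and none of the 3 was called. Of 18 genes induced by the receptor, Dusp2 and Junb were called lower. Of 16 chemokine receptors, Ccr3 was called higher from low levels, at 7.34, 7.75, 8.36 and 7.67 against 0.204, 0.554, 2.13 and 1.12 CPM, and Cxcr6 lower. The call of Ccr3 ended under 6 of 13 alternatives. Beside the counts of these lists, 1.24% of all genes were called higher and 1.4% lower.

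Cell cycle genes were positive in 28 of 30 cases, with a median log2 fold of 0.79, and 2 of them, Mcm6 and Cenpa, were called. With depth-matched cells the median was 0.36, with 26 of 30 positive and 0 called by edgeR, 3 of them at an unadjusted p under 0.05. DESeq2, run on the cells without depth matching, called 10. Mki67, a marker of cycling cells, was detected at equal depth in 16.1%, 17.7%, 23.5% and 13.8% of regulatory T cells and in 10.6%, 9.42%, 8.56% and 11.6% of conventional ones. Of 35 interferon-stimulated genes 4 were called higher, Ifi27l2a, Iigp1, Tap1 and Gbp7. Ifi27l2a was at 2413, 2191, 1625 and 2585 against 1231, 902, 983 and 953 CPM, with no overlap. Of 32 cytosolic ribosomal proteins 30 were negative and 6 were called lower (median log2 fold -0.15). With depth-matched cells 0 of these were called, with 11 at an unadjusted p under 0.05 in edgeR. Over all genes, without depth matching, edgeR called 1.24% higher and 1.4% lower, and DESeq2 called 318 higher and 304 lower of 12563. With depth-matched cells 1237 of all 11276 genes had an unadjusted p under 0.05 in edgeR.

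**Figure D4:**
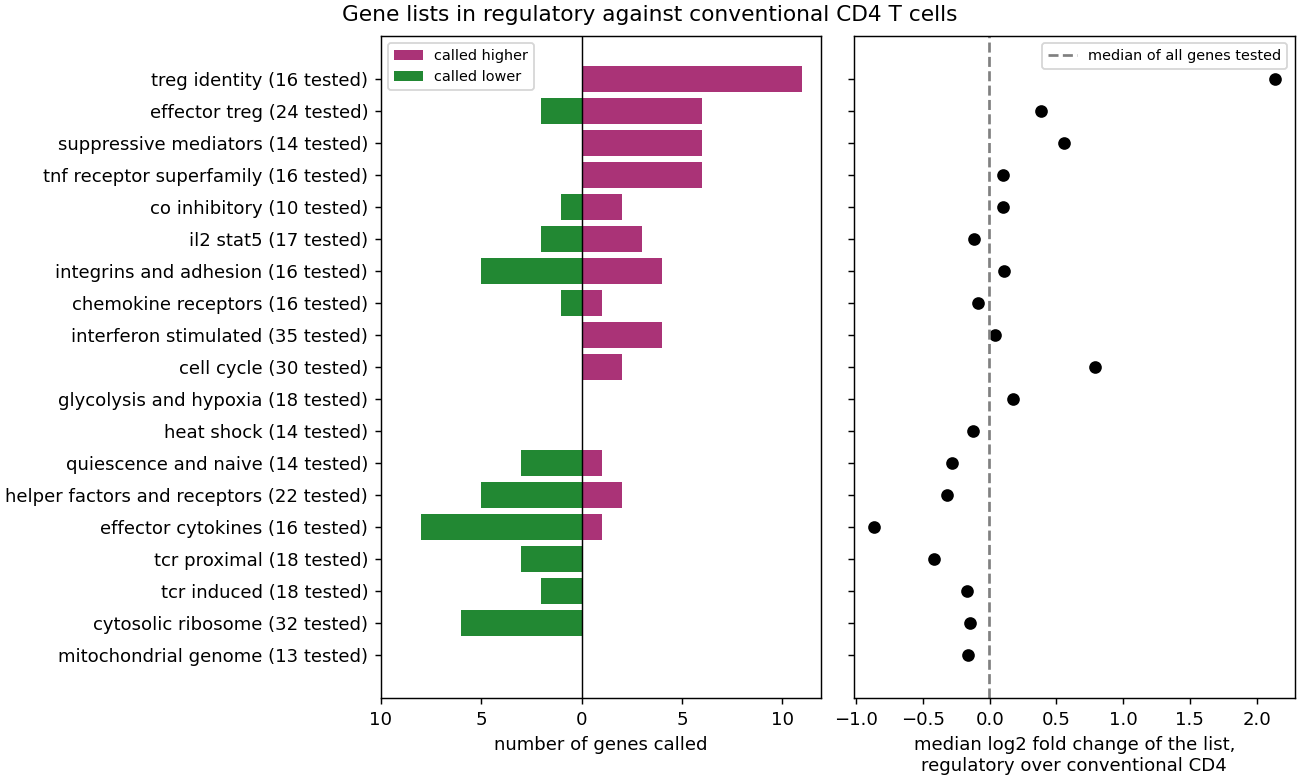
Number of genes of each list called higher (bars to the right) or lower (bars to the left) in regulatory against conventional CD4 T cells, and, in the right panel, the median log2 fold of each list (points) beside that of all genes tested (dashed line). The identity list has 11 genes called higher and a median of 2.14, and the effector cytokines have 8 called lower and a median of -0.87.

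Within the regulatory T cells, detected genes were set against each other in the 566 thinned cells, pooled over the mice, as a description with 95% Wilson intervals. Klrg1 was detected in 86. Gzmb was found in 37.2% (27.8 to 47.8) of these 86 and in 14.2% (11.3 to 17.6) of the other 480. Il10 was found in 19.8% (12.7 to 29.4) and 7.5% (5.47 to 10.2), and Izumo1r in 66.3% (55.8 to 75.4) and 35.8% (31.7 to 40.2). Tcf7 went the other way, with 5.81% (2.51 to 12.9) of Klrg1-positive and 18.5% (15.3 to 22.3) of Klrg1-negative cells. Ikzf2 was detected in 256 cells. Itgae was found in 19.9% (15.5 to 25.2) of these and in 8.07% (5.52 to 11.6) of the others, and Ctla4 in 59.8% (53.7 to 65.6) and 40% (34.7 to 45.5). Cells with a single Foxp3 count, which showed the lineage markers least often, are part of the classes without a detected gene.

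Between inhibitor-treated and untreated mice, the identity genes of the regulatory T cells did not pass the test. Levels are written here as those of untreated against those of treated mice. Of 17 tested, 0 were called, 7 were positive and 10 negative, with a median log2 fold of -0.12 against 0.01 over all 11807 genes tested. With at least 2 Foxp3 counts per cell, 13 were positive and the median was 0.19. Ikzf2 was at 317 and 382 against 203 and 295 CPM (log2 fold -0.46 ± 0.23 SE, edgeR adjusted p = 0.8904). Tnfrsf4 was at 525 and 509.7 against 602 and 764 CPM (log2 fold 0.42 ± 0.19 SE, edgeR adjusted p = 0.872). In both genes the 2 groups of 2 mice did not overlap, in opposite directions. A full separation of 2 against 2 mice has an exact permutation p of 0.333, so it passes no test, here and in the genes below. The share of all genes with such a separation was not counted. Foxp3 itself, which chose the cells, was at 514 and 567 against 420 and 447 CPM. It was at 825 and 803 against 843 and 553 CPM without cells of mixed type, with overlapping groups. In thinned cells the share with Ikzf2 was 47.7% and 48.6% against 38.2% and 39.8%, a difference of means of -9.15 percentage points (exact permutation p = 0.333, the smallest possible). Cells with a single Foxp3 count, in which Ikzf2 was detected less often, were 22.6% and 18.3% of the regulatory T cells of untreated and 36.6% and 29.4% of those of treated mice. Among cells with at least 2 Foxp3 counts the share with Ikzf2 was 55.8% and 53.3% against 50% and 47.7%, a difference of means of -5.72 percentage points. The shares with Ctla4, Il2ra and Tnfrsf4 differed by -1.84, 0.35 and 1.22 percentage points, and mice of the 2 groups overlapped in all 3. Among cells with at least 2 Foxp3 counts the share with Tnfrsf4 was 55.8% and 55% against 66.7% and 64.8%, with no overlap.

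Over all genes, 0 of 11807 were called higher (0%) and 1 lower (0.00847%), with 679 at an unadjusted p under 0.05 in edgeR and 8 higher and 60 lower calls in DESeq2. The gene called was Apoe, apolipoprotein E, which is abundant in microglia and macrophages. It was at 1268 and 1281 against 60.2 and 109 CPM (log2 fold -3.88 ± 0.29 SE, edgeR adjusted p = 0.028). It was detected in 65, 115, 25 and 50 cells, and 47.9% of its counts lay in 5 cells. Without cells of mixed type Apoe was at 111 and 114 against 51.8 and 47.2 CPM, groups that did not overlap, and the call ended there and with at least 2 Foxp3 counts. In conventional CD4 T cells it was at 556 and 1148 against 321 and 219.8 CPM.

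The other 9 genes of smallest p on the lower side, none of them called, included Ccl3, Trem2, Ctsd, Cx3cr1, Ctsl, Pald1, Egr1 and Fcrls. Trem2, Cx3cr1 and Fcrls are receptors of microglia. Trem2 was at 249 and 175 against 20.9 and 41.5 CPM, and Cx3cr1 was at 485 and 291 against 72.7 and 108 CPM. Egr1, a gene induced early by receptor signals, was at 1175 and 867 against 402 and 265 CPM. In all 3 the treated mice lay under the untreated ones. Cx3cr1 without cells of mixed type was at 52.7 and 33.5 against 49.6 and 27.4 CPM, with overlapping groups and a log2 fold of -0.20, and Trem2 was at 28.7 and 9.09 against 2.16 and 3.05 CPM. Egr1 without cells of mixed type was at 277 and 321 against 403 and 269.7 CPM, with overlapping groups and a log2 fold of 0.16.

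Markers of microglia moved with these genes: 12 of 12 were negative with a median log2 fold of -2.51 and 0 called by edgeR, against 12 at an unadjusted p under 0.05 and 6 called by DESeq2. Their sum was 8560 and 3628 CPM without and 693 and 1406 CPM with the inhibitor, and no marker of the list was at 0. The number of regulatory T cells with at least 10 counts of these markers was 56 and 66 against 8 and 17. In conventional CD4 T cells the same sum was 4746 and 3897 against 1171 and 1657 CPM. Without cells of mixed type 9 of the 12 were tested, all negative, with a median of -1.52. In that fit 0 genes were called over all genes by edgeR, with 293 at an unadjusted p under 0.05.

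**Figure D5:**
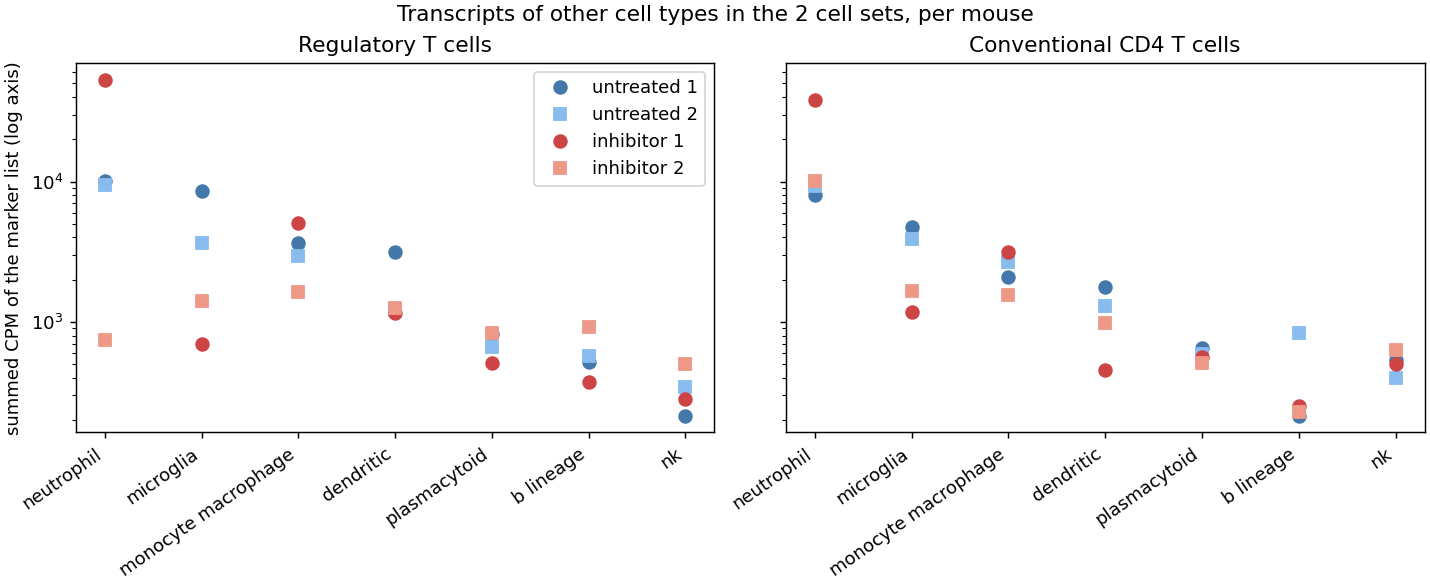
Summed level of the marker lists of other cell types (CPM, log axis) in regulatory (left) and conventional CD4 T cells (right), with 1 point per mouse, blue for untreated and red for inhibitor-treated mice. In regulatory T cells the microglia markers lie at 8560 and 3628 CPM in untreated and at 693 and 1406 CPM in treated mice, and the neutrophil markers at 53000 CPM in inhibitor replicate 1.

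The 10 genes of smallest p on the higher side, none of them called, were Mpo, Ms4a3, Srm, Stmn1, Rangrf, Plac8, Ybx3, Prtn3, Ctsg and Tomm70a. Mpo, Prtn3 and Ctsg are granule proteins of myeloid precursors, and Ms4a3 marks the same cells. Mpo was at 9.54 CPM in untreated replicate 1, listed at 0 in untreated replicate 2, and at 1696 and 782 CPM in inhibitor replicates 1 and 2. Its counts came from 5 cells and those of Ms4a3 from 7, and both genes were listed at 0 in every mouse without cells of mixed type. Srm, spermidine synthase, was at 31.9 and 27 against 115 and 71.3 CPM, and Stmn1, a microtubule protein of dividing cells, at 209.6 and 193 against 498 and 357 CPM. The log2 fold of Srm was -0.21 without cells of mixed type, and with at least 2 Foxp3 counts that of Stmn1 was -0.31. Ybx3, a nucleic acid-binding protein, was at 69.4 and 76.98 against 157 and 140.4 CPM (log2 fold 1.05 ± 0.22 SE, edgeR adjusted p = 0.483) and kept its direction under all 13 alternatives, with log2 folds between 0.68 and 1.14.

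Neutrophil markers were positive in 10 of 12 cases with a median log2 fold of 1.23, and without inhibitor replicate 1 they were negative in 12 of 12 with a median of -2.64. Over all genes, the number called without inhibitor replicate 2 was 293 in place of 1. It was 6 without untreated replicate 1, 31 without untreated replicate 2 and 63 without inhibitor replicate 1.

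Among the lists of T cell genes 0 were called by edgeR in this comparison, and 3 receptors among the genes of smallest p are given as values. Ccr6, the receptor of the chemokine Ccl20, by which T cells can enter the cord in EAE, was at 11.01 and 17.9 against 67.7 and 38.8 CPM (log2 fold 1.89 ± 0.46 SE, edgeR adjusted p = 0.586). It was detected in 9, 18, 9 and 17 cells, with 36.0% of its counts in 5 cells. Without cells of mixed type it was at 3.701 and 19.3 against 147 and 63.2 CPM. In thinned cells its share was 3.23% and 3.18% against 8.82% and 9.76%. Treated mice were higher than untreated ones in each of these measures of Ccr6 level and share, which rest on the same few cells. Of 16 chemokine receptors tested 8 were positive and 8 negative, with a median log2 fold of -0.04. In conventional CD4 T cells Ccr6 was at 14.6 and 14.5 against 9.003 and 12.4 CPM. Havcr2, the inhibitory receptor Tim-3, which myeloid cells also carry, was at 63.9 and 53.99 against 23.4 and 15.3 CPM (edgeR adjusted p = 0.553). Lag3, an inhibitory receptor that binds MHC class II, was at 132 and 187 against 79.4 and 101 CPM (edgeR adjusted p = 0.761). Neither passed, and the treated mice lay under the untreated ones in both. The list of 10 co-inhibitory genes was split evenly, with 5 positive, 5 negative and a median log2 fold of -0.05. The groups overlapped in both genes without cells of mixed type, with Havcr2 at 16.7 and 36.4 against 36.7 and 16 CPM and Lag3 at 75.9 and 146 against 119 and 107 CPM.

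Suppressive mediators were split evenly, with 7 of 14 positive and 0 called. Il10 was at 15.4 and 132 against 45.96 and 51.9 CPM and Gzmb at 208 and 204 against 70.2 and 266 CPM, both with overlapping groups. Of 30 cell cycle genes 22 were positive (median log2 fold 0.17). Without cells of mixed type 8 of 30 were positive and the median was -0.22, and with at least 2 Foxp3 counts 5 were positive. Stap1, an adaptor protein named in the title of the series, was at 53.6 and 65.8 against 81.9 and 57.8 CPM in regulatory T cells (log2 fold 0.25 ± 0.30 SE, edgeR adjusted p = 0.963), with overlapping groups, and at 77.1, 77.6, 83.6 and 91.4 CPM in conventional ones.

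The difference between the treatment effects in regulatory and conventional CD4 T cells was tested as an interaction. Of 13771 genes 0 were called higher or lower (0%), with 593 at an unadjusted p under 0.05 in edgeR and 2 calls in DESeq2. The 5 genes of smallest p were Ccl1, Tmem106a, Hspb1, Apoe and Cd34. Ccl1 was listed at 0 in regulatory T cells of both treated mice and came from 5 regulatory T cells in all, with 77.1% of its counts in 1 cell. Apoe had an interaction of -2.34 ± 0.46 SE on the log2 scale (edgeR adjusted p = 0.993). Hspb1, a small heat shock protein, was at 1.101, 2.41, 0 and 56.4 CPM in regulatory T cells and at 14.25, 12.74, 0.474 and 0.914 CPM in conventional ones. Among regulatory T cells it was thus high in inhibitor replicate 2 alone, while in conventional ones both treated mice lay under both untreated mice.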

How the data were processed

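Single-cell RNA was measured in hashtagged, pooled CD45+ spinal cord cells of 4 mice, grouped by the hashtag in each column's name. The authors deposited whole-number counts per gene and cell, not normalized. Per the submitters' processing notes the genome build was GRCm38. Neither the aligner nor the use of strand is given in the sources used here, and the counts may be of molecules or of reads. The 44 genes listed first (Ccl1, Mpo and Ms4a3 among them) hold no nonzero count below 4, so 0 is given there as listed at 0. The smallest nonzero count was 18 for Mpo, 10 for Lyz2, 6 for C1qa and 110 for the neutrophil marker S100a8. Lyz2 therefore entered the rule for cells of mixed type, given below, only from 10 counts. Of 25461 columns, 3943 whose names do not start with 1 of the 4 hashtags were not used. Another 1014 cells over 20% mitochondrial counts were left out. Doublets within a mouse were not removed. Cells of mixed type (at least 2 counts of Cd79a, Ms4a1, Csf1r, Csf3r, Lyz2, Siglech and Klrb1c) were left out as an alternative.

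Counts were summed per mouse and cell set, filtered (filterByExpr), scaled by TMM and tested with edgeR 4.0.16 (glmQLFit, glmQLFTest, R 4.3.3), with DESeq2 1.42.0 as an alternative. The fits were run first on simulated data. Of 100 genes changed by a log2 fold of 2 and 100 changed by 1, the treatment fit called 48 and 9, with 7 false calls. The interaction fit called 51 and 6, with 6 false calls, and the fit between cell sets 87 and 48, with 12. Genes not called for treatment or interaction can thus hold differences of this size. The changed genes were drawn from the better-counted ones, so recovery of low-count genes was not measured. No mouse effect was simulated for the fits with the mouse as a block. The 8 genes of the cell rules were not tested between cell sets. SE is a standard error of the log2 fold, taken as its size divided by the square root of the test's F value. Shares were compared over mice by exact permutation, and Wilson intervals are at 95%. Python 3.11.15, numpy 2.4.6, scipy 1.17.1 and pandas 2.3.3 were used. The labels do not pair mice by replicate number. With 2 mice a group, p-values of the treatment fit measure the spread between these mice. Those of the fit between cell sets and of the interaction measure how the difference within a mouse varied over these 4 mice.

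Members and gene lists (449 genes, 4 without a row in the matrix) were chosen with earlier results of these data known. Named genes were, for the inhibitor, the 10 higher and 10 lower of smallest p. Against conventional cells they were the 12 higher and 12 lower called genes of largest fold with the same direction in all 4 mice and an average of at least 32 CPM, and for the interaction the 5 of smallest p. List members were added as those of smallest p or markers of the cell type. Other list members were named after their values were seen. A gene of several lists counts in each. Some genes that these rules name are not reported here.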

Additional observations from a re-analysis of the deposited data

How the results depend on the processing

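Against conventional CD4 T cells (156 genes higher, 176 lower), 318 and 304 passed with DESeq2, 346 and 616 with no filter on low counts, and 51 and 48 with depth-matched cells. Without cells of mixed type 247 were higher, with at least 2 Foxp3 counts 110 were lower, with no condition on Cd4 327 were lower, and with a mouse left out 72 to 123 were higher and 65 to 128 lower. With no replicate block, that is without the mouse as a block, 132 and 126 passed. The 332 calls kept their direction wherever tested, except 5 of 331 with no condition on Cd4. Within regulatory T cells (1 gene called), 68 passed with DESeq2, 212 with no filter, 0 with at least 2 Foxp3 counts, 0 without cells of mixed type, 2 with a supporting marker (chosen after seeing the data), 6 to 293 with a mouse left out and 4 with the replicate number as a block. Deviations of mice with the same number had a correlation of -0.14 over 5169 genes, and with the pairing crossed, added after seeing the data, 14 passed. For the interaction (0 called), 2 passed with DESeq2, 58 with no filter, 4 with at least 2 Foxp3 counts, 4 with a supporting marker and 8 to 34 with a mouse left out. A lone mouse of a group was assumed to vary like the other group. Of the values of named genes under the alternatives, 490 kept direction and side of the threshold, 17 lost and 101 gained a call, and 7 changed direction. These were Srm (-0.21), Plac8 (-0.22) and Egr1 (0.16) without cells of mixed type, Stmn1 (-0.31) and Prtn3 (-3.45) with at least 2 Foxp3 counts, and for the interaction Hspb1 without inhibitor replicate 2 (from -1.67 to 8.80 with a mouse left out) and Cd34 (-0.033) with at least 2 Foxp3 counts. The difference in the Il2ra share was -1.60 percentage points without thinning and -0.73 without cells of mixed type, and that in the Ctla4 share was 4.68 with at least 2 Foxp3 counts, the last 2 settings chosen after seeing the data. The causes were not tested. The share of regulatory T cells stayed lower with the inhibitor under all alternatives run. With 71 cells in inhibitor replicate 1, rare transcripts rest on few cells.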

Other observations

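Transcripts of Ighm, the heavy chain constant gene of immunoglobulin M, were higher in regulatory than in conventional CD4 T cells. They were at 431, 424, 330.1 and 510.4 against 115, 135, 157 and 98.7 CPM (log2 fold 1.73 ± 0.18 SE, edgeR adjusted p = 0.00121), in the order untreated replicates 1 and 2 and inhibitor replicates 1 and 2. Every regulatory value lay above every conventional one. Ighm was detected in 384 of the 585 regulatory T cells, with 2.96% of its counts in the highest cell. In thinned cells it was detected in 50.3%, 50%, 45.6% and 52.9% of regulatory and 13.5%, 16.8%, 17.1% and 11.4% of conventional cells. Of the 10 genes of the B lineage list tested, Ighm was the 1 called. Cd79a, a chain of the B cell receptor, was at 5.14, 12.03, 6.69 and 46.03 against 9.67, 28.3, 9.95 and 18.5 CPM, and Ms4a1, which encodes CD20, was at 10.3, 8.82, 7.52 and 31.1 against 11.5, 12.9, 10.2 and 9.95 CPM, both with overlapping sets. Without cells of mixed type, which leaves out cells with Cd79a or Ms4a1 at 2 counts, Ighm was at 488, 552, 582 and 524 against 67.7, 87.8, 106 and 66.4 CPM.

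Irf8, a transcription factor listed here with plasmacytoid dendritic cells, was at 339.6, 260.1, 291 and 291 against 223, 177, 146 and 128 CPM (log2 fold 0.81 ± 0.13 SE, edgeR adjusted p = 0.0104). The sets did not overlap, and the call ended with at least 2 Foxp3 counts, without inhibitor replicate 2 and with depth-matched cells. The other genes of that list were not called. Penk, which encodes the opioid precursor proenkephalin, was at 5.87 and 9.36 against 249 and 7.22 CPM in regulatory T cells of untreated and treated mice (log2 fold 4.06 ± 1.32 SE, edgeR adjusted p = 0.767), so that it was high in inhibitor replicate 1 alone.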
